A study of Mus musculus with 19 samples.

Results

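The genes described are those of the mitochondrial ribosomal proteins, taken as every gene whose symbol begins with Mrpl or Mrps followed by a digit and to which a probe set of the array maps alone. These genes numbered 76 of the 10733 genes tested, 47 named Mrpl and 29 named Mrps. All 76 passed the filter on dim signals (log2 signal above 4 on at least 5 arrays). Where a gene had several, its brightest probe set by the mean of the 19 arrays stood for it. The symbols follow the old division into large and small subunit, so a few names do not match the place of the protein. Mrps18a and Mrps30 sit in the large subunit, and Mrps36 is known as a component of the alpha-ketoglutarate dehydrogenase complex of the citric acid cycle.

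The mitochondrial ribosome translates the few messenger RNAs encoded by mitochondrial DNA, all of which specify core subunits of the respiratory chain and of ATP synthase. Its RNAs come from mitochondrial DNA, whereas its proteins are encoded by nuclear genes, made in the cytosol and imported. Some of these proteins descend from those of the bacterial ribosome and others have no counterpart in it. Heart muscle depends on oxidative phosphorylation for nearly all of its energy, and inherited defects of several of these proteins cause cardiomyopathy.

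A RefSeq promoter window (GRCm38.p6, from 250 bases before to 50 after the start of transcription) was at hand for 67 of the members, on 16 chromosomes. Each window was searched on both strands for 3 short motifs of factors known to serve nuclear genes of mitochondria: GCATGCGC for NRF1, CCGGAAG for the ETS family that includes GABPA, and GATGGCG for YY1. The ETS motif was in 25 of the 67 windows (37.3%, against 9.93% of all promoters and 20.4% of those of the genes tested). NRF1 and YY1 motifs were in 8 windows each (11.9%), against 3.05% and 4.04% of all promoters and 6.16% and 7.77% of those of the genes tested. At least 1 of the 3 was in 35 windows (52.2%, against 15.4% and 30.6%). A match is only a run of letters and shows no binding. To show what such promoters look like in the genes the results turn on, 5 stretches of 120 bases that end at the start of transcription are given, all on the plus strand, with motif matches in capitals. Those of Mrpl22 (chr11:58171544-58171663), Mrpl58 (chr11:115403632-115403751) and Mrps11 (chr7:78783011-78783130) belong to the members with the largest fall in heart failure among those with an NRF1, an ETS and a YY1 match there. Mrpl14 (chr17:45686229-45686348) had the largest fall of all and no match in the stretch. Mrps23 (chr11:88204268-88204387) was the member that was higher, and its ETS match lies elsewhere in its window. The NRF1 match of Mrpl22 and the YY1 match of Mrps11 are on the opposite strand.
Mrpl22: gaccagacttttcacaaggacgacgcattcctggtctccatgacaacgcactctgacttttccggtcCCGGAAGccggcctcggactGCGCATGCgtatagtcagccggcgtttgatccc
Mrpl58: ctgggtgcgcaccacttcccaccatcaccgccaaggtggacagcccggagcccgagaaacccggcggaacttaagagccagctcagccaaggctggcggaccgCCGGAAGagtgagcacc
Mrps11: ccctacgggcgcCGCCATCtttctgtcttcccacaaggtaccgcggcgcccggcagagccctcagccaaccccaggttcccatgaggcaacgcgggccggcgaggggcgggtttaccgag
Mrpl14: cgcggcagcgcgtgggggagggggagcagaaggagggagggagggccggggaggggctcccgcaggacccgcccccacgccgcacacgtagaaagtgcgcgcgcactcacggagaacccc
Mrps23: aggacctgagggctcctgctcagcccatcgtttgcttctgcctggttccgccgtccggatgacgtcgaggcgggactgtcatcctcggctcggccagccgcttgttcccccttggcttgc

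Left ventricles came from 19 male C57BL/6 mice, operated at 7 weeks of age and killed 4 weeks later, with 1 Affymetrix array per mouse made from 3 ug of total RNA. There were 5 sham-operated mice, 7 with a constriction of the aorta (banding) that were without heart failure, and 7 banded mice with heart failure; no other genotype or agent is named. The labels do not say what defined heart failure, so the banded groups are an outcome and not a treatment. The deposited values are log2 signals computed with GCRMA, in which 1 unit is a doubling, and levels of different probe sets cannot be set against each other.

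Myl2, the light chain of ventricular myosin, had a log2 signal of 15.64 to 15.90 on all arrays. The atrial light chain Myl7 varied widely, from 7.53 to 12.67 in sham mice, 8.86 to 13.75 without and 2.30 to 13.89 with heart failure, although the protocol describes removal of the atria. By the signal of the array's 18S ribosomal RNA control, 6 arrays were high (3 sham, 3 banded without heart failure) and 13 low (2 sham, 4 without and all 7 with heart failure). Animal numbers in the titles form 3 series, each with mice of every group, and the 6 arrays with high 18S signal are the sham and non-failing mice of series 1. The difference between actin 3' and 5' control signals, a measure of RNA integrity, lay between 0.943 and 1.02 in sham mice, 0.672 and 0.898 without and 0.661 and 0.905 with heart failure (exact permutation test, two-sided, p = 0.00253 for either banded group against sham and 0.952 between them). Fits that include these signals are named below. Sham and banded mice did not overlap in the actin difference, so its use as a covariate cannot separate it from banding. No heart failure array was in the high 18S set, so within a set heart failure can be compared with only 2 sham mice. The part of these differences in the results below was thus not tested.

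In banded mice with heart failure the genes of the mitochondrial ribosome were mostly lower than in sham mice. Of the 76 members 53 fell, 1 rose and 22 did not pass the test (limma, Benjamini-Hochberg adjusted p under 0.05 over all genes). Among all genes tested 18.9% fell and 20.4% rose (39.3% in all), whereas 69.7% of the members fell. The split of all genes moved with scaling, from 2027 lower and 2193 higher to 2587 and 1793 after quantile normalisation. The median log2 difference of the members was -0.27, a signal 17% lower, beside 0.01 for all genes. The difference was below 0 for 71 members, and for 49% of all genes. For 29 members (38.2%) every mouse with heart failure lay below every sham mouse, which 9.06% of all genes did. For 0 members did every mouse with heart failure lie above every sham mouse, against 8.5% of all genes. The falls ran from -0.94 to -0.15 on the log2 scale, and the middle 50% of the members lay between -0.39 and -0.14. With whole tissue, fewer cells of a type and less RNA per cell cannot be told apart.

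**Figure D1:**
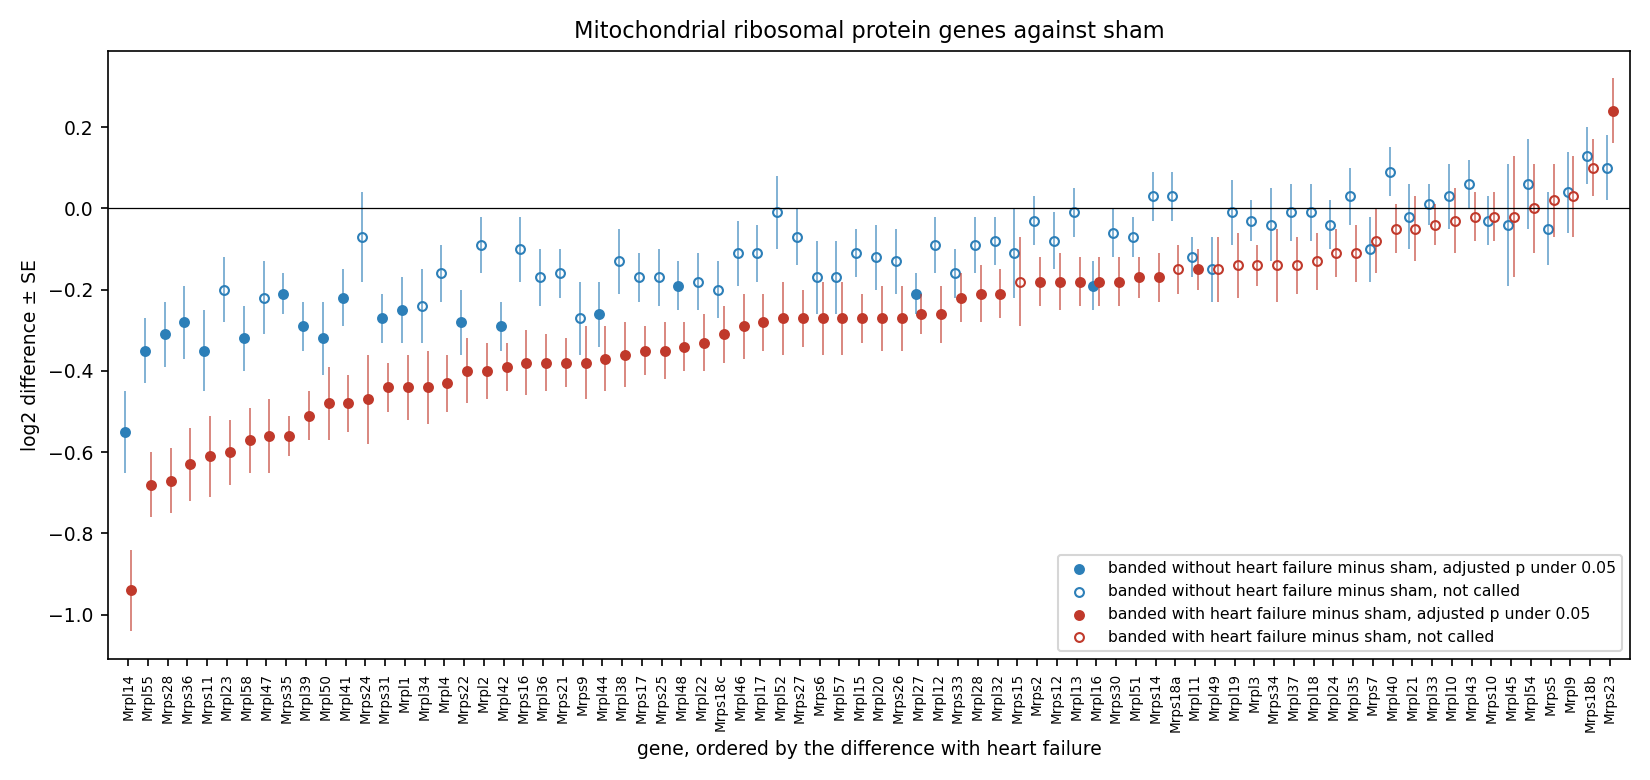
Log2 difference from sham (vertical axis, with the standard error of the limma fit) for each of the 76 genes, ordered along the horizontal axis by the difference in banded mice with heart failure (red); blue points give banded mice without heart failure, and filled points have an adjusted p under 0.05. The red points run from -0.94 for Mrpl14 to 0.24 for Mrps23, and the blue points from -0.55 to 0.13.

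Mrpl14 encodes a conserved protein of the large subunit at the face that meets the small subunit, where the assembly factor Malsu1 binds. Its log2 signal was 10.08, 9.77, 9.97, 9.71 and 10.16 in the sham mice. It ranged from 9.24 to 9.52 (median 9.39) in banded mice without heart failure and from 8.70 to 9.29 (median 9.01) in those with it. All 14 banded mice thus lay below the sham mice, and the banded groups overlapped at their edges. The difference between heart failure and sham was -0.94 ± 0.10 (SE; limma adjusted p = 9.73e-07), a signal 47.9% lower.

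The next falls in order were those of Mrpl55, Mrps28, Mrps36, Mrps11 and Mrpl23, by 34% to 37.6%. Mrpl55, a large subunit protein, gave 11.08, 11.05, 11.04, 10.63 and 10.91 in sham mice and 10.12 to 10.43 (median 10.24) in heart failure, a difference of -0.68 ± 0.08 (limma adjusted p = 6.09e-06). Mrps28, of the small subunit, gave 11.76, 11.77, 11.80, 11.51 and 11.66 in sham mice and 10.83 to 11.16 (median 11.07) in heart failure, a difference of -0.67 ± 0.08 (limma adjusted p = 4.54e-06). In both genes the groups were fully apart. Mrps36, the protein of the dehydrogenase complex, was 11.40, 11.10, 11.30, 11.23 and 11.57 in sham mice and 10.53 to 10.90 (median 10.62) in heart failure, lower by 35.5% (log2 -0.63 ± 0.09, limma adjusted p = 1.9e-05). Mrps11, whose bacterial relative lies on the platform of the small subunit, was 8.80, 8.77, 8.80, 8.41 and 8.67 in sham mice against 7.82 to 8.30 (median 8.10), a log2 difference of -0.61 ± 0.10 (limma adjusted p = 0.000165). Mrpl23, which lies by the exit of the peptide tunnel, was 11.71, 11.40, 11.61, 11.43 and 11.70 in sham mice against 10.86 to 11.12 (median 10.98), a log2 difference of -0.60 ± 0.08 (limma adjusted p = 2.48e-05). These groups did not overlap either.

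**Figure D2:**
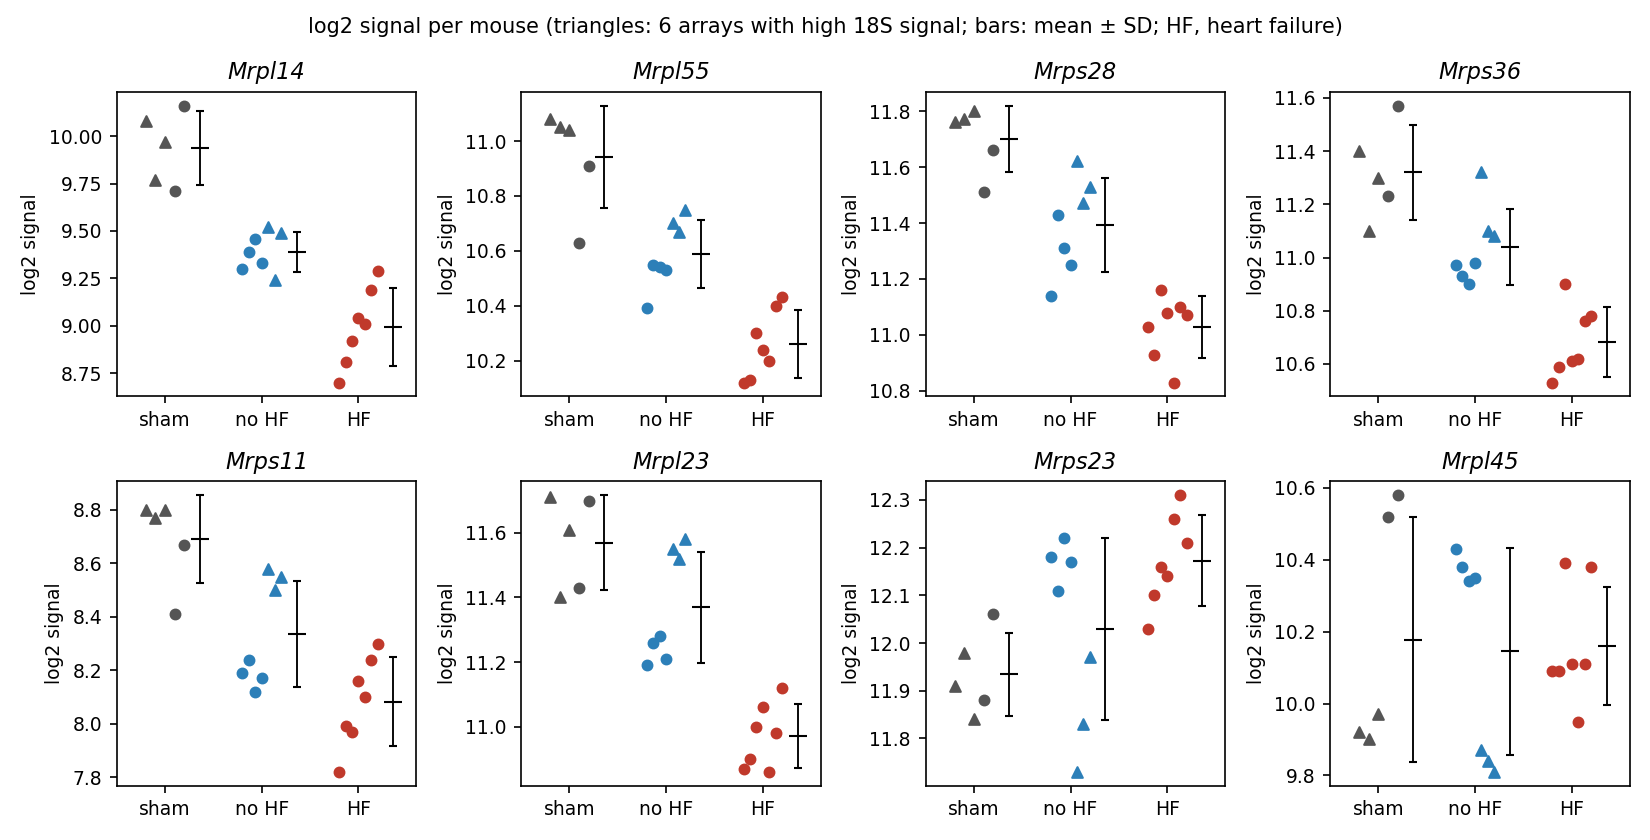
Log2 signal (vertical axis, a separate scale in each panel) of 8 genes in each of the 19 mice by group (sham, banded without and banded with heart failure, HF); bars give the mean and SD of a group, and triangles mark the 6 arrays with high 18S signal. In the 6 panels with the largest falls all mice with heart failure lie below all sham mice, Mrps23 goes the other way with overlap, and Mrpl45, with no difference past the test, has its high 18S arrays at 9.81 to 9.97 and the others at 9.95 to 10.58.

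Members of both subunits fell. Bacterial relatives here are proteins of the bacterial ribosome, and members without one are called specific to mitochondria. In the large subunit 20 of 30 members with bacterial relatives fell (median of all 30, -0.24), as did 13 of 19 specific to mitochondria (median -0.27). In the small subunit 12 of 17 with bacterial relatives fell (median -0.27), and of 9 specific to mitochondria 7 fell and 1 rose (median -0.27). Whether these shares differ was not tested. In these role lists Mrps18a and Mrps30 are counted with the large subunit.

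Among proteins with bacterial relatives in the large subunit, Mrpl47 at the tunnel exit fell by 0.56 (sham 9.89 to 10.50, heart failure 9.51 to 9.79, with no overlap). Mrpl1 and Mrpl34 fell by 0.44 each, Mrpl4 by 0.43, Mrpl2, a protein close to the peptidyl transferase centre, by 0.40, and Mrpl36 by 0.38. Mrpl12 forms the stalk that recruits translation factors, and its log2 signal reached 12.33 in sham mice (median 12.25) and ran from 11.84 to 12.14 in heart failure (median 11.87). The groups overlapped and the fall was 0.26 (limma adjusted p = 0.00957). Its partner at the base of the stalk, Mrpl10, did not pass the test (-0.03, limma adjusted p = 0.764). Nor did Mrpl3, mutated in an inherited cardiomyopathy (-0.14, limma adjusted p = 0.054), or Mrpl9, Mrpl33, Mrpl21, Mrpl24, Mrpl35, Mrpl18, Mrpl19 and Mrps18a, whose differences lay between -0.15 and 0.03.

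Among the large subunit proteins with no relative in the bacterial ribosome, Mrpl58 is a peptidyl-tRNA hydrolase built into the mitochondrial ribosome. Its log2 signal was 11.46, 11.48, 11.51, 11.20 and 11.46 in sham mice and 10.66 to 11.07 (median 10.86) in heart failure, with no overlap, and it fell by 0.57. Mrpl39 fell by 0.51, Mrpl50 and Mrpl41 by 0.48 each, Mrpl42 by 0.39 and Mrpl44, a relative of RNase III and a cardiomyopathy gene, by 0.37. Mrpl42 had the brightest probe set, a property of the probes that ranks no transcript, at 14.45 to 14.71 in sham mice and 14.04 to 14.22 in heart failure. Members of this group that did not pass the test were Mrpl37, Mrpl40, Mrpl43, Mrpl45, Mrpl49 and Mrpl54, with differences between -0.15 and 0.00. Mrpl45 anchors the ribosome to the inner membrane, and it spread most within the sham group (SD 0.34). Its signal was 9.81 to 9.97 on the arrays with high 18S signal and 9.95 to 10.58 on the others.

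In the small subunit Mrps24 fell by 0.47 and Mrps16, Mrps21 and Mrps9 by 0.38 each among the proteins with bacterial relatives, and Mrps17 by 0.35. Mrps12, whose bacterial relative lies at the decoding centre, passed narrowly (-0.18, limma adjusted p = 0.0478), and without 1 or other of 15 of the 19 mice it did not. The symbol Mrps18 covers 3 related genes: Mrps18c fell by 0.31, while Mrps18b (0.10, limma adjusted p = 0.266) and Mrps18a (-0.15, limma adjusted p = 0.0547) did not pass. Others of the small subunit that did not pass were Mrps5, Mrps7, Mrps10, Mrps15 and Mrps34, with differences between -0.18 and 0.02. Mrps5 had the dimmest probe set, at 8.17 to 8.48 in sham mice and 8.18 to 8.39 in heart failure.

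Of the proteins specific to the mitochondrial small subunit, Mrps35 had the lowest adjusted p of all 76 members. Its log2 signal was 11.23, 11.29, 11.29, 11.31 and 11.36 in sham mice, 10.99 to 11.18 (median 11.06) in banded mice without heart failure and 10.62 to 10.89 (median 10.73) with it. The 3 groups were fully apart. It fell by 0.56 ± 0.05 from sham to heart failure (limma adjusted p = 4.24e-07). Mrps31 fell by 0.44, Mrps22, another gene of inherited cardiomyopathy, by 0.40, and Mrps25 by 0.35.

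Mrps23 was the single member that rose in the fit of all arrays. Its log2 signal was 11.91, 11.98, 11.84, 11.88 and 12.06 in sham mice and 12.03 to 12.31 (median 12.16) in heart failure, so the groups overlapped slightly, and the difference was 0.24 ± 0.08 (limma adjusted p = 0.0266). In banded mice without heart failure it ran from 11.73 to 12.22. Its other probe sets gave differences of 0.07 and -0.09 with unadjusted limma p of 0.353 and 0.315. The mean over its probe sets differed by 0.07 (limma adjusted p = 0.318), and with the 18S array set as a block the difference was 0.11 (limma adjusted p = 0.279). With the actin control difference as a covariate it was 0.04 (limma adjusted p = 0.801), and the call was lost within each animal number series (0.16, 0.27 and 0.20). The call was also lost without sham mouse 1 (0.24), 3 (0.22) or 4 (0.23) or heart failure mouse 6 (0.22), with limma adjusted p between 0.0517 and 0.0668.

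Banded mice without heart failure differed from sham mice in the same direction at fewer genes. Of the 76 members 18 fell and 0 rose (limma), or 23.7%, where 6.53% of all genes fell and 10.8% rose (17.4% in all). All genes split into 701 lower and 1164 higher, into 926 and 902 after quantile normalisation and into 474 and 1520 with each array centred on its median. At an unadjusted limma p under 0.05 the counts were 31 lower and 0 higher. The median log2 difference was -0.11, a signal 7.52% lower, beside 0.02 for all genes, and 65 members were below 0 (45.8% of all genes). In 9 members (11.8%) the highest of these banded mice lay below the lowest sham mouse, against 3.04% of all genes. The reverse held for 0 members and 4.63% of all genes. The falls ran from -0.55 to -0.19. Both comparisons share the sham mice, so their likeness is not independent evidence.

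Mrpl14 again had the largest fall, -0.55 ± 0.10 (limma adjusted p = 0.00102), a signal 31.6% lower with no overlap. Mrpl55 ranged from 10.39 to 10.75 in these mice and Mrps11 from 8.12 to 8.58. Both fell by 0.35 (limma adjusted p = 0.00792 and 0.0249), and their ranges overlapped those of the sham mice. Mrpl58, the hydrolase, and Mrpl50 fell by 0.32 each (limma adjusted p = 0.0085 and 0.024) and Mrps28 by 0.31 (limma adjusted p = 0.0149). Mrpl50 was 10.07, 9.98, 10.10, 10.03 and 10.27 in sham mice and 9.63 to 9.97 (median 9.69) in these mice, so the groups were only just apart. The call of Mrps11 was lost without any 1 of sham mice 1, 2 and 3 and non-failing mice 1 and 3, and that of Mrpl50 without sham mouse 5.

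The other 12 that fell were Mrpl39, Mrpl42, Mrps22, Mrps36, Mrps31, Mrpl44, Mrpl1, Mrpl41, Mrps35, Mrpl27, Mrpl48 and Mrpl16, by 0.19 to 0.29. By role these 18 were 5 of the 30 large subunit proteins with bacterial relatives, 7 of the 19 specific to mitochondria, 2 of 17 and 3 of 9 in the small subunit, and Mrps36. Mrpl16 and Mrpl27, neighbours of the peptidyl transferase centre, fell from sham but did not pass the test between the banded groups. Mrpl16 was 11.94 to 12.02 in sham mice, 11.69 to 11.88 without and 11.64 to 11.99 with heart failure. Mrpl27 had medians of 12.08, 11.89 and 11.86 in that order, and both banded groups lay wholly below the sham mice. Those differences between the banded groups were 0.01 and -0.05 with standard errors of 0.05 each (limma adjusted p = 0.932 and 0.606).

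Leaving out 1 mouse changed the count of 18 to between 10 and 27. Without sham mouse 1 it was 10, without sham mouse 2 or 3 it was 11 each time, and without sham mouse 5 it was 12. Of all genes between 4.23% and 6.48% were lower in those fits. Of the 18 members 9 kept their call in all 19 of these fits.

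Between the banded groups 21 members were lower with heart failure and 0 higher (limma). That was 27.6% of the members, where 5.65% of all genes were lower and 3.83% higher (9.48% in all). At an unadjusted limma p under 0.05 the counts were 42 and 0. The median difference was -0.14, a signal 9.28% lower, beside -0.01 for all genes, and 70 of the 76 members were below 0 (53.6% of all genes). For 7 members (9.21%) no mouse with heart failure reached the lowest mouse without it, against 1.8% of all genes. For 0 members was the order the reverse, against 0.839%. The falls ran from -0.40 to -0.17. These are the banded mice already compared with sham, in the same fit, so likeness to those comparisons is not independent evidence.

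Mrpl23 fell most, by 0.40 ± 0.08 (limma adjusted p = 0.00512), from 11.19 to 11.58 (median 11.28) without heart failure to 10.86 to 11.12 with it, a signal 24.1% lower with no overlap. Mrps24 fell by 0.39 ± 0.10 (limma adjusted p = 0.0175), from 12.30 to 12.97 (median 12.53) to 12.11 to 12.46 (median 12.17), and here the groups overlapped. Neither had passed the test between non-failing and sham mice (-0.20, limma adjusted p = 0.109, and -0.07, limma adjusted p = 0.672). Mrpl14 fell by 0.39 ± 0.09 (limma adjusted p = 0.0118) and Mrps28 by 0.37 ± 0.07 (limma adjusted p = 0.00618), with overlap. Mrps36, from 10.90 to 11.32 (median 10.98) to 10.53 to 10.90, fell by 0.36 ± 0.08 (limma adjusted p = 0.0107). Mrps35 fell by 0.35 ± 0.05 (limma adjusted p = 0.000903), a signal 21.7% lower. The remaining 15 were Mrpl47, Mrpl55, Mrpl2, Mrps16, Mrpl4, Mrpl41, Mrpl58, Mrpl52, Mrpl38, Mrps21, Mrpl39, Mrpl36, Mrps14, Mrps17 and Mrps18a. By role the 21 were 8 of 30 and 5 of 19 in the large subunit, 6 of 17 and 1 of 9 in the small subunit, and Mrps36. Without non-failing mouse 5 the count was 12. On the arrays with low 18S signal, which leave out 3 of the non-failing mice, the difference was -0.26 for Mrpl23 (limma adjusted p = 0.0747) and -0.22 for Mrps24 (limma adjusted p = 0.159). There it was -0.37 for Mrpl14, -0.26 for Mrps28 and Mrps36 and -0.34 for Mrps35, of which Mrps35 alone passed.

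The median deviation of the 76 members from the sham mean gave a value for each mouse. It lay between -0.09 and 0.07 in the sham mice, -0.14 and -0.08 in the 7 without heart failure, and -0.35 and -0.17 in the 7 with it. Each sham mouse is part of the sham mean, which draws the sham values towards 0 in this and the gene groups that follow. Mice with heart failure had 60 to 73 members below the sham mean, and those without it 52 to 64. Nuclear genes of oxidative phosphorylation complexes I, III, IV and V, measured in the same way, had a like order. They lay between -0.05 and 0.03 in sham mice, -0.16 and -0.05 without and -0.32 and -0.19 with heart failure. Cytosolic ribosomal proteins were between -0.04 and 0.06 in sham mice, -0.09 and 0.07 without and -0.11 and 0.00 with heart failure, so these groups overlapped. The median over all genes stayed between -0.02 and 0.05 in every mouse.

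**Figure D3:**
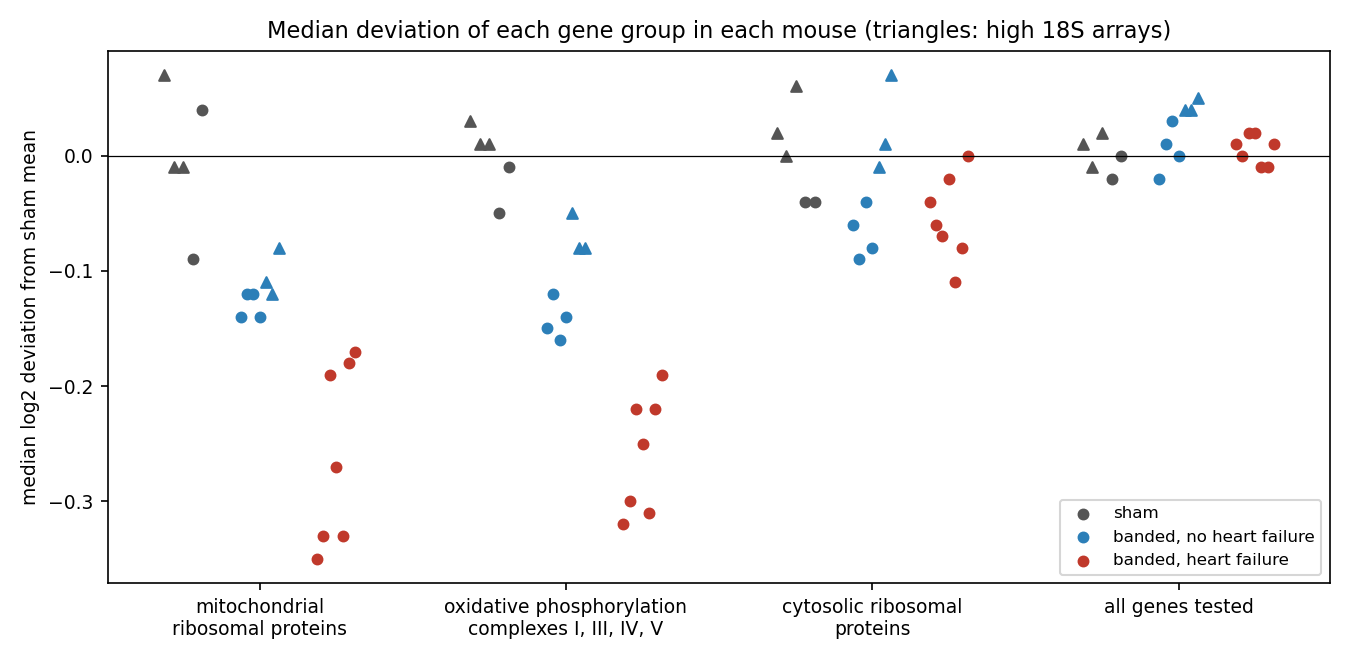
Median log2 deviation from the sham mean (vertical axis) of 4 groups of genes in each mouse; grey, blue and red points are sham mice and banded mice without and with heart failure, and triangles mark the 6 arrays with high 18S signal. For the mitochondrial ribosomal proteins the mice with heart failure lie at -0.35 to -0.17, below the mice without it at -0.14 to -0.08. Oxidative phosphorylation genes lie likewise, at -0.32 to -0.19 and -0.16 to -0.05, and cytosolic ribosomal proteins overlap between groups.

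The arrays with low 18S signal were those of 2 sham mice, 4 without and 7 with heart failure. There the median difference between heart failure and sham was -0.24, beside -0.27 over all arrays, and fewer genes passed. Whether the smaller number of mice or the 18S set lay behind the lost calls was not tested. Over those 13 arrays 70 of 76 members were below 0, with 34 falling and 1 rising (limma), where 11.3% of all genes fell. The member that rose there was Mrps18b (0.27, limma adjusted p = 0.0337), and Mrps23 did not pass (0.21, limma adjusted p = 0.0845). Mrpl14 fell there by 0.94, Mrps36 by 0.71, Mrpl23 and Mrps35 by 0.60, and Mrps28 by 0.56. Non-failing against sham mice gave a median of -0.11 and 0 members passed (limma; 18 lower and 2 higher at an unadjusted p under 0.05). Between the banded groups it was -0.13 with 73 below 0, and Mrps35 alone passed (limma; 28 lower and 0 higher unadjusted). Of all genes 1.24% and 0.773% were lower on those arrays in these comparisons, in that order. With the 18S array set as a block in the fit of all arrays, 47, 21 and 16 members were called in heart failure against sham, in non-failing against sham mice and between the banded groups. In that fit 15.2%, 8.43% and 5.03% of all genes were lower.

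For 5 members, Mrpl2, Mrpl12, Mrpl32, Mrpl47 and Mrps24, every array with high 18S signal lay above every array with low signal, as 349 of all 10733 genes did. Over the low 18S arrays alone the falls of Mrpl12 and Mrpl32 in heart failure against sham did not pass (-0.09 and -0.12, limma adjusted p = 0.492 and 0.244). Those of Mrpl47 (-0.32), Mrps24 (-0.33) and Mrpl2 (-0.28) did, with limma adjusted p of 0.011, 0.03 and 0.0241. With the actin control difference as a covariate 38 members were called against sham in heart failure and 10 without it. In that fit 10.3% and 3.31% of all genes were lower.

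Within the 3 animal number series, the median difference between heart failure and sham was -0.35, -0.13 and -0.30. For non-failing against sham mice it was -0.09, -0.02 and -0.21. With against without heart failure it was -0.25, -0.12 and -0.08, so all 9 medians were below 0. Series 1 (3 sham, 3 without and 2 with heart failure) called 53, 15 and 36 members (of these 36 Mrpl45 alone higher, at 0.25). In the same fits 20.3%, 7.37% and 12.5% of all genes were lower. In series 1 all sham and non-failing arrays had high 18S signal and both heart failure arrays low. Heart failure and the 18S set thus cannot be told apart within that series. Series 2 and 3 hold 1 sham mouse each and called 0 members in every comparison (limma). At an unadjusted limma p under 0.05, 14 and 33 members were lower there in heart failure against sham, 1 and 18 in non-failing against sham mice and 7 and 3 between the banded groups, with 0 higher each time. The spread in these fits against sham comes from the banded mice alone, and the lone sham mouse is assumed to vary like them. Among all 10733 genes, 0 were called in series 2 in any comparison. In series 3, 109 were called in heart failure against sham (23 lower, 86 higher), 9 in non-failing against sham mice and 0 between the banded groups. With the series as a block over all arrays 57, 18 and 23 members were called, where 19%, 8.2% and 6.92% of all genes were lower.

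**Figure D4:**
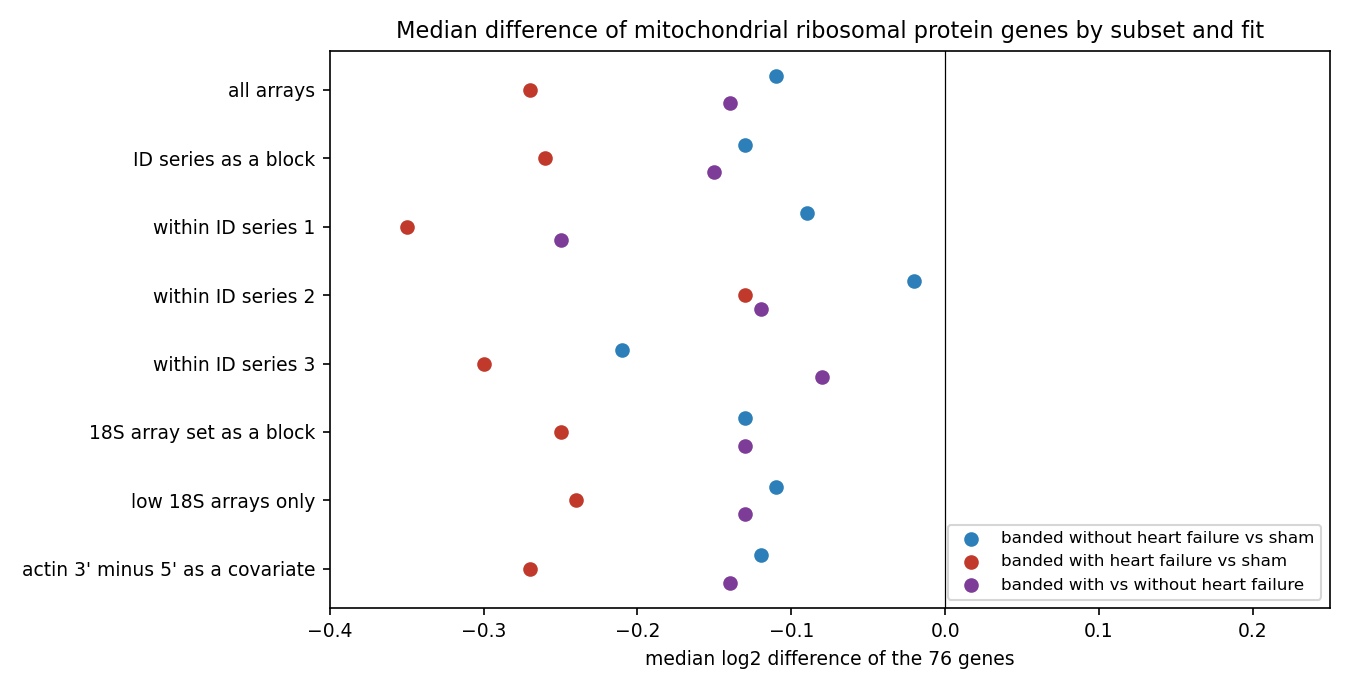
Median log2 difference of the 76 genes (horizontal axis) in each of the 3 comparisons (colours), for all arrays, for fits with a block or covariate, and for subsets of the arrays (rows). Every point lies below 0, between -0.35 and -0.02.

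Where a member had several probe sets above the filter, as 30 did, their signs did not always match. All probe sets of a gene had the same sign for 25 of the 30 in heart failure against sham. That held for 20 in non-failing against sham mice and 22 between the banded groups. For none did differences of opposite sign both pass an unadjusted limma p of 0.05, in any comparison. In heart failure against sham 22 of these 30 fell by their brightest probe set, and 15 of the 22 had a further probe set lower at that p. The 7 without were Mrpl34, Mrpl50, Mrpl51, Mrpl52, Mrps2, Mrps6 and Mrps25. In non-failing against sham mice 5 of 7 such falls had a further probe set lower, while Mrpl1 and Mrpl50 had none. Between the banded groups 3 of 6 had one, while Mrpl47, Mrpl52 and Mrps14 had none. For Mrpl51 the brightest set gave -0.17 and a dimmer one 0.76 ± 0.40 (limma, unadjusted p = 0.0725), so the mean of its probe sets differed by 0.19 (limma adjusted p = 0.31), opposite in sign. Mrpl44, with 4 probe sets, had differences of -0.37, -0.46, -0.08 and -0.13.

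Of 4 listed small subunit proteins whose symbols do not begin with Mrp, 3 were tested (Dap3, Ptcd3 and Chchd1, but not Aurkaip1), and of the large subunit Gadd45gip1 was. These fell in heart failure against sham, by 0.30, 0.21, 0.50 and 0.41. Dap3 fell also without heart failure (by 0.17), and Chchd1 and Gadd45gip1 were lower with than without it (by 0.30 and 0.32).

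Of 24 genes that help to assemble these ribosomes 14 fell in heart failure against sham, 0 rose and 10 did not pass (limma; median -0.25; 14 and 0 at an unadjusted p under 0.05). The share of all genes that fell, to be set beside this and the counts that follow, was 18.9% in that comparison, 6.53% in non-failing against sham mice and 5.65% between the banded groups. Mettl17, a factor of small subunit assembly, fell by 0.75 and the ribosomal RNA methyltransferase Trmt61b also by 0.75. Eral1, the GTPase that chaperones the small subunit RNA, ran from 11.15 to 11.43 in sham mice, 10.98 to 11.23 without and 10.76 to 10.95 with heart failure, and it fell in all 3 comparisons, by 0.17, 0.44 and, between the banded groups, 0.27. Rbfa fell by 0.33 and Malsu1, the partner of Mrpl14, by 0.28 between the banded groups. In banded mice without heart failure against sham 5 of the 24 fell, Mettl17 (-0.56), Mettl15 (-0.37), Mterf3 (-0.29), Mtg1 (-0.22) and Eral1.

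Of 14 translation factors 6 fell in heart failure against sham, 0 rose and 8 did not pass (limma; 7 and 0 unadjusted; median -0.14). The release factor gene Mtrf1l fell by 0.42, Lrpprc, which stabilises mitochondrial messenger RNA, by 0.29, and the elongation factor Tufm by 0.20 (limma adjusted p = 0.0125). Without heart failure 2 fell, Mtrf1l (-0.28) and the elongation factor Gfm1 (-0.28). Gfm1 was level between the banded groups (-0.00 ± 0.07), where 0 of the 14 passed (limma; 5 lower and 0 higher unadjusted). Of 18 aminoacyl-tRNA synthetases 8 fell and 1 rose in heart failure against sham, with Cars2 at -0.51 and Nars2 at -0.39. Without heart failure Cars2 (-0.26), Lars2 (-0.17) and Kars (-0.15) fell and Gars rose (0.23), and between the banded groups Ears2 (-0.32) and Cars2 (-0.26) were lower. Gars, which rose by 0.34 in heart failure against sham, serves the cytosol as well. It was 9.93 to 10.11 in sham mice, 10.15 to 10.32 without and 10.26 to 10.45 with heart failure.

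Of 14 genes that maintain and transcribe mitochondrial DNA 9 fell in heart failure against sham (median -0.25). The mitochondrial RNA polymerase Polrmt fell by 0.46 (limma adjusted p = 0.0011) and Top1mt, the mitochondrial topoisomerase, by 0.46. Tfam, the main packaging protein of that DNA, did not pass (-0.12, limma adjusted p = 0.3). Without heart failure Polg2, the accessory subunit of the DNA polymerase, alone fell (-0.32). Between the banded groups Top1mt (-0.49), Polrmt (-0.32) and the elongation factor Tefm (-0.19) were lower. Of 14 regulators of mitochondrial biogenesis 2 fell and 2 rose in heart failure against sham (median -0.08). Ppara fell by 0.43 and Gabpa, an ETS factor, by 0.22, while Myc rose by 1.58 and Pprc1 by 0.35. Ppargc1a had a difference of -0.34 ± 0.17 (limma adjusted p = 0.126), and Nrf1 of -0.17 ± 0.12 (limma adjusted p = 0.253). In banded mice without heart failure Myc alone of these passed, at 1.18, and between the banded groups Esrrg alone (-0.24).

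Nuclear genes of the respiratory chain, whose protein partners the mitochondrial ribosome makes, had a like median. In complex I 30 of 32 fell in heart failure against sham (median -0.28), and in complexes III, IV and V 27 of 33 (median -0.24). Ndufs4 fell by 0.51, Ndufv3 by 0.48 and Atp5e by 0.53. Cox7c fell by 1.11 at signals near or below the filter (3.80 to 5.39 in sham mice, 2.27 to 4.15 in heart failure). Complex II has no subunit encoded in mitochondria, and 2 of its 4 genes fell, Sdha and Sdhb by 0.25 each (median of the 4, -0.21). Without heart failure 5 of 32, 4 of 33 and 0 of 4 fell (limma; complex II, 2 lower and 0 higher unadjusted), and between the banded groups 14, 9 and 1. Those without heart failure were Ndufs8 (-0.22), Ndufc2 (-0.20), Ndufv1 (-0.19), Ndufa8 (-0.17) and Ndufb11 (-0.14) of complex I and Uqcr10 (-0.28), Cox8b (-0.24), Atp5e (-0.22) and Atp5g2 (-0.18) of the others. Between the banded groups the largest falls were those of Ndufs4 (-0.31) and Ndufv3 (-0.30), of Atp5e (-0.31) and Atp5g2 (-0.29), and Sdhc fell in complex II (-0.26). Of 17 genes of import, the outer membrane and the matrix 8 fell in heart failure against sham (median -0.15), with citrate synthase Cs at -0.29 and Timm23 at -0.30. Without heart failure Vdac1 (-0.25) and Cs (-0.24) fell and Tomm40 rose (0.32), and between the banded groups Timm23 (-0.27), Timm10 (-0.21) and Timm8b (-0.21) were lower.

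Cytosolic ribosomal proteins served as a comparison within the same arrays. Of 42 tested 6 fell in heart failure against sham and 0 rose (limma; 8 and 1 unadjusted; median -0.06). The muscle form Rpl3l fell by 1.21 and Rps19 by 0.17. Without heart failure 2 fell, Rpl3l (-0.56) and Rps4l (-0.47), and between the banded groups Rpl3l fell by 0.65 and Rps6 rose by 0.20.

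**Figure D5:**
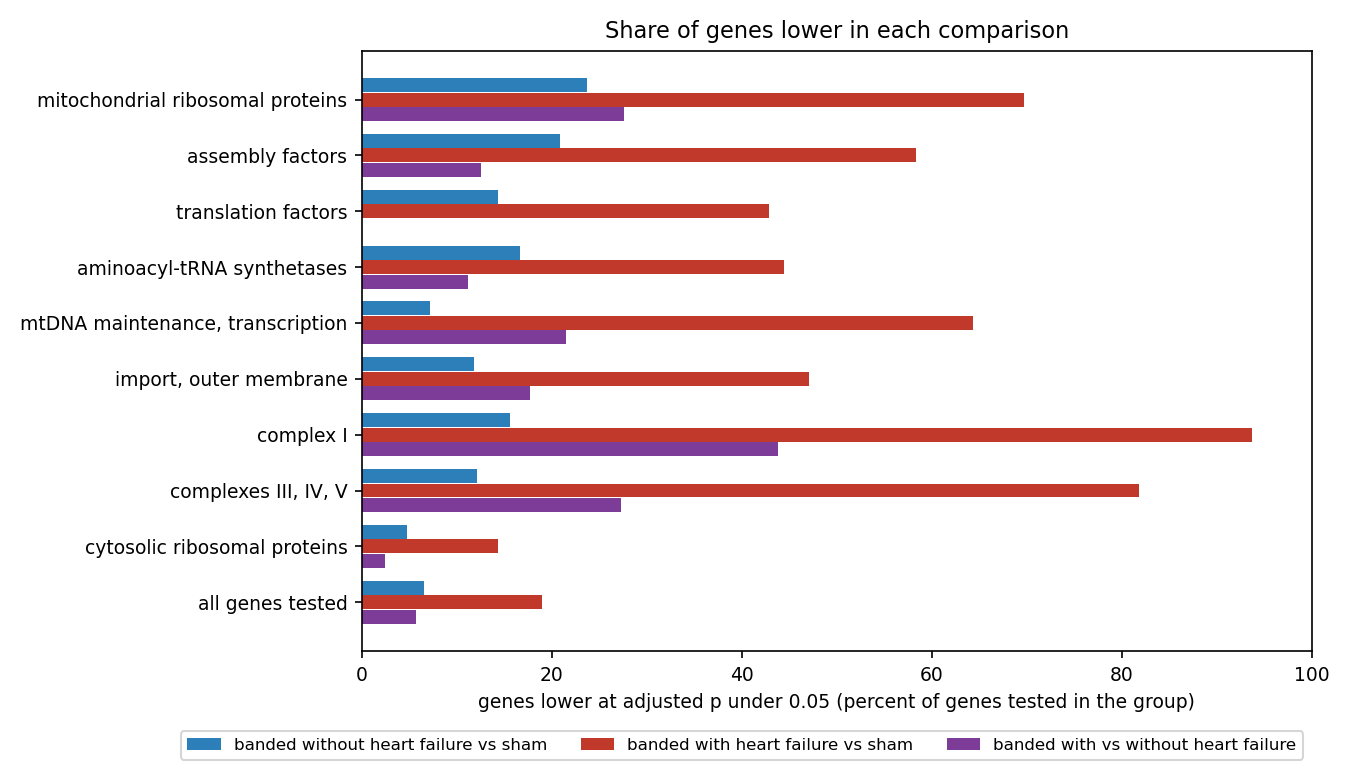
Share of the genes tested in each group that were lower at a limma adjusted p under 0.05 (horizontal axis, percent), for the 3 comparisons (colours). In heart failure against sham 69.7% of the mitochondrial ribosomal protein genes were lower, beside 18.9% of all genes. Between the banded groups no translation factor passed that threshold, though 13 of 14 had a difference below 0.

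Among markers of other cells, those of fibroblasts rose in both banded groups, and the cell division genes that passed the filter rose in heart failure. Of 10 fibroblast markers 9 rose in heart failure against sham (median 1.13), 8 without heart failure (median 0.63) and 4 between the banded groups (median 0.39). Their summed signal on the log2 scale was 14.73 to 15.55 in sham mice, 15.19 to 15.98 without and 15.93 to 16.38 with heart failure. Of 12 cell division genes listed 7 passed the filter, which the 7 heart failure arrays alone could meet, and all 7 rose in heart failure against sham. Their summed signal was 7.97 to 8.4 in sham mice, 8.04 to 8.93 without and 7.98 to 9.63 with heart failure, so these groups overlapped. Of 12 cardiomyocyte markers 4 fell (Myh6, Tnni3, Ryr2 and Pln, by 0.15 to 0.27) and Mybpc3 rose by 0.27, with a median of -0.08. Their summed signal was 19.10 to 19.21 in sham mice, 19.11 to 19.16 without and 19.04 to 19.15 with heart failure, ranges that overlap. Of 11 macrophage and leukocyte markers 0 passed in any comparison (limma; 2 were lower in heart failure against sham at an unadjusted p under 0.05 and 0 in the others), and 0 of 3 erythroid genes did (limma; 0 unadjusted). Of 10 endothelial markers 3 rose in heart failure against sham, and of 8 smooth muscle and pericyte markers 2 rose and 2 fell. Of all genes 20.4% rose and 18.9% fell in that comparison. Of 7 atrial markers Kcnj3 was lower in all 3 comparisons and Nppa higher in both against sham. Myl7 was lower with than without heart failure (-4.93, limma adjusted p = 0.0457), with 2.30 as its lowest signal. The part of these markers in the members' differences was not tested.

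Promoter features were set beside the falls in heart failure against sham. Of the 47 members with a window that fell, 48.9% held at least 1 of the 3 motifs, and of the other 20, 60% did. For the ETS motif the shares were 36.2% and 40%, for NRF1 8.51% and 20%, and for YY1 10.6% and 15%. The start of another gene on the opposite strand lay within 1000 bases of 25 of the 67 starts (37.3%, against 12.2% of all promoters and 19.7% of those of the genes tested). One such pair is of members, Mrps11 (-0.61) and Mrpl46 (-0.29), which both fell in heart failure against sham. Of 18 other neighbours that were tested 6 fell, 1 rose and 11 did not pass (median -0.15), where 18.9% of all genes fell. With the pair included 8 of 20 fell (median -0.19). Beside Mrpl14 (-0.94) lay Tmem63b (-0.39), beside Mrpl55 (-0.68) 2610507I01Rik (-0.59), and beside Mrpl47 (-0.56) the complex I gene Ndufb5 (-0.23). Mrpl2 (-0.40) and its neighbour Klc4 (0.46) moved in opposite directions. Mrpl43 did not pass (-0.02, limma adjusted p = 0.844), whereas its neighbour Twnk, the mitochondrial DNA helicase, fell by 0.45.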

How the data were processed

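Total RNA of left ventricles was measured on 19 Affymetrix arrays, 1 per mouse (5 sham, 7 banded without and 7 with heart failure). The authors deposited log2 signals, and the submitters' processing notes name GCRMA, without a version in the sources used here. That method corrects the background by probe sequence and normalises across arrays, and dim probe sets can be pulled towards a floor. Depth does not apply to arrays, and their number limits the precision: the median standard error of a member's difference was 0.07. Nothing in the labels says that mice shared a litter or a cage, and p-values measure the spread between mice.

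Gene symbols came from the platform annotation held by GEO: 34958 of 45101 had 1 symbol, 932 several and 9211 were not listed, and all 76 member IDs matched the reference gene table. Members had 156 probe sets, of which 123 passed the filter (log2 above 4 on at least 5 arrays). For 46 members 1 probe set passed. The 3 contrasts came from a single limma fit with group as the only term (limma 3.58.1, R 4.3.3), with Benjamini-Hochberg adjustment over 10733 genes and a threshold of 0.05. The script was tested on simulated data. Control signals were compared by exact permutation tests (scipy 1.17.1). Promoter sequences are RefSeq's (GRCm38.p6), and 9 members had none.

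The members and lists were chosen with earlier results of these data known. Named by rule are the 6 members with the largest fall and rise in each comparison, the brightest and the dimmest, the 2 largest changes of each list (all if 5 or fewer passed) and Ppargc1a, Tfam, Polrmt, Tufm, Dap3 and Ptcd3. Others, markers and promoter neighbours included, were named after their values were seen. Mrpl47 was moved to the proteins with bacterial relatives after values had been seen, to correct its role. Alternatives were other filters, the mean of probe sets, quantile normalisation, centring, trended robust variances, fits of 2 groups, animal number series and 18S set as blocks or subsets, the actin control as a covariate and leaving out each mouse. Organ weights in the labels were not used.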

Additional observations from a re-analysis of the deposited data

Results flagged for a closer look

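For each of the 76 members and for their median, the highest and the lowest mouse of each group were compared with the others of that group by Dixon's test. Of 231 groups 11 held a mouse that stood apart by that test, and chance gives about 1 in 20 groups. In sham mouse 4 Mrpl58 was 11.20 (others 11.46 to 11.51), Mrps14 11.71 (11.85 to 11.90) and Mrpl28 11.76 (11.54 to 11.58). In sham mouse 1 Mrpl33 was 11.64 (11.52 to 11.54). In heart failure mouse 1 Mrps6 was 10.99 (10.40 to 10.63), Mrpl40 9.90 (10.12 to 10.25) and Mrpl49 9.12 (9.35 to 9.52). In heart failure mouse 5 Mrps10 was 10.23 (9.93 to 10.03) and Mrpl33 11.46 (11.51 to 11.53). Mrps15 was 11 in heart failure mouse 3 (10.52 to 10.72) and Mrps33 11.51 in heart failure mouse 7 (11.15 to 11.28).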

How the results depend on the processing

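The number of members called depended on the arrays used more than the sign of the median, which was below 0 under all 33 alternatives of each comparison. For heart failure against sham (54 called) the count was 35 on the low 18S arrays, 0 within series 2, 0 within series 3 and 46 to 56 without 1 mouse. For non-failing against sham mice (18) it was 9 with arrays centred on their medians, 10 with the actin covariate, 0 on the low 18S arrays, 0 within series 2, 0 within series 3 and 10 to 27 without 1 mouse. Between the banded groups (21) it was 1 on the low 18S arrays, 36 within series 1, 0 within series 2, 0 within series 3 and 12 to 22 without 1 mouse. The counts under the other alternatives were within 1.5 times those of the fit as designed. In heart failure against sham 41 of the 54 calls were kept without any 1 mouse, as were 9 of 18 and 12 of 21 in the others, and 27 of 54, 0 of 18 and 1 of 21 calls were lost within series and under no other alternative.

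Members below 0 within series 2 were 62 in heart failure against sham (71 over all arrays) and 46 in non-failing against sham mice (65). Among members called over all arrays, signs turned, with none of these differences passing the test, for Mrpl44 (0.02) and Mrps22 (0.02) in non-failing against sham mice within series 2. In heart failure against sham they turned within series 2 for Mrpl20 (0.01), Mrpl57 (0.01), Mrps9 (0.01), Mrps22 (0.04) and Mrps2 (0.05), within series 3 for Mrpl12 (0.04), and for Mrpl51 with the mean of its probe sets (0.19). No paired analysis was made, because each array is a separate mouse and the labels name no pairs. The cause of these shifts was not tested. Signal over background was not analysed here.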
